A study of Mus musculus with 10 samples.

Results

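Krüppel-like factors (KLFs) are zinc finger transcription factors, and 6 of their genes were followed here across 4 states of mouse naive CD4 T cells. Klf2, Klf3, Klf4, Klf6, Klf10 and Klf13 were taken by name and are 6 of 17 Klf genes in the annotation and of 45321 genes in all. RNA sequencing was done on T cells from the spleen of C57BL/6 mice, sorted as naive helper T cells, positive for CD4 and negative for CD69. All cells first spent 1 h with 12.5 µM Compound 10 or with its solvent DMSO (vehicle). The series' text calls Compound 10 a small-molecule inhibitor of NFAT:AP-1, in which the calcium-regulated factor NFAT sits on DNA beside Fos and Jun proteins. Part of the cells were then stimulated for 2 h with 10 nM PMA, which turns on protein kinase C, and 1 µM ionomycin, which lets calcium into the cell, without engaging the T cell receptor. There were stimulated Compound 10 cells (n = 3), stimulated vehicle cells (n = 2), unstimulated Compound 10 cells (n = 2) and unstimulated vehicle cells (n = 3). The labels give no age or sex of the mice, and they do not name separate mice or cultures for the libraries of a group. The p-values therefore refer to the spread between these libraries, which may be technical.

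KLF proteins bind CACCC boxes and related GC-rich sites through a conserved zinc finger domain, and their differing amino-terminal parts recruit either activators or repressors. KLF2 keeps naive T cells quiescent and in circulation, in part by driving the receptor gene S1pr1, and its transcription is known to stop when T cells are activated. KLF4 restrains proliferation of T cells and is better known from monocytes and reprogramming. KLF3 is a repressor that recruits CtBP. KLF6 is a widely expressed factor linked to the cell cycle inhibitor gene Cdkn1a. KLF10 was found as an early gene induced by TGF-beta, and KLF13 as a factor that drives Ccl5 late in T cell activation. Both of them recruit the corepressor SIN3A.

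The stretches before the start sites of 4 members are shown, because these genes moved in different directions and the compound is aimed at a complex that binds DNA. They come from the RefSeq promoter table (GRCm38.p6), which holds 5 of the 6 members, each as 250 bases before and 50 bases after the start. Only bases before the annotated transcripts are printed, 5′ to 3′ on the gene's strand. Capitals mark, on either strand, the NFAT core GGAAA, the AP-1 site TGANTCA, the CRE half-site TGACG, the KLF box CACCC, and the MEF2 and CArG boxes, which are given by name.
Klf2, chr8:72318812-72319032, plus strand: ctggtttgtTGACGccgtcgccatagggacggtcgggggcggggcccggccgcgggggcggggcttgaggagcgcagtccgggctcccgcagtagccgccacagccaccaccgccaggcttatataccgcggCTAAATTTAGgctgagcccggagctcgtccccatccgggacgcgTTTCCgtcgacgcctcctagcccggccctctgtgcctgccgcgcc
Klf6, chr13:5861239-5861481, plus strand: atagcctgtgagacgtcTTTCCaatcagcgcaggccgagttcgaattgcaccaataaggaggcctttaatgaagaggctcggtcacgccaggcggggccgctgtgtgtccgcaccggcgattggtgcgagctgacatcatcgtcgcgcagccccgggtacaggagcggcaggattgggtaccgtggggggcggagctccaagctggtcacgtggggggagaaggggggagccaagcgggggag
Klf4, chr4:55532476-55532725, minus strand: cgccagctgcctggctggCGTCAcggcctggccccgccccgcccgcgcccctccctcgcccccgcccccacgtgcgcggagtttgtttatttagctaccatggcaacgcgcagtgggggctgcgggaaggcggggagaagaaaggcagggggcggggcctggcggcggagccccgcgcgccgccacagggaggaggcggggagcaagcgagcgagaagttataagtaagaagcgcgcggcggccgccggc
Klf13, chr7:63938916-63939165, minus strand: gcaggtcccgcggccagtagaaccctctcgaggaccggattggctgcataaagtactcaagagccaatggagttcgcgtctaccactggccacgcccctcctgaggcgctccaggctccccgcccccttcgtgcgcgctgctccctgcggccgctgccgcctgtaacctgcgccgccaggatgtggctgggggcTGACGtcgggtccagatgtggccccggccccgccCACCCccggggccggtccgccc
No match to the AP-1 site or the CArG box lay in any of the 5 windows of 300 bases. The AP-1 site occurred in 7.81% and the CArG box in 1.63% of all 32851 promoters of the table. The Klf2 and Klf6 windows held 1 NFAT core each, and the Klf3, Klf4 and Klf13 windows held 0. That core occurred in 61.3% of all promoters. The MEF2 box in the Klf2 window was the only one among the 5, and 0.557% of all promoters held one. MEF2 factors act on Klf2 downstream of the kinase ERK5 in endothelial cells. A CRE half-site, found in 20.8% of promoters, lay once in each of the Klf2, Klf3, Klf4 and Klf13 windows, and not in that of Klf6. The GC box GGGCGG, found in 35.7% of promoters and left in lower case, occurred between 1 and 6 times in each of the 5 windows. All 5 windows were GC-rich, with 63.0% to 76.7% G and C against a median of 52.7% over all promoters.

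The 10 libraries held between 10694591 and 33486259 estimated counts, and 14417 genes had enough counts to be tested. Unstimulated vehicle replicate 3 and unstimulated Compound 10 replicate 2 were the deepest libraries and stood apart from the other libraries of their groups, which bears on Klf13. Summed levels of T cell identity genes lay between 2940 and 4030 CPM (normalised counts, here by library total) in every library. Naive T cell markers summed to 1900 to 1910 CPM in stimulated Compound 10 cells, 1360 to 1510 CPM in stimulated vehicle cells, 2680 to 3060 CPM in unstimulated Compound 10 cells and 2380 to 2840 CPM in unstimulated vehicle cells. B cell, NK cell and CD8 T cell markers summed to at most 9.92, 5.66 and 8.59 CPM in any library. In such bulk samples, fewer cells of a type and less RNA per cell cannot be told apart.

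Stimulation of vehicle-treated cells split the family. Klf2, Klf3 and Klf6 fell to between 0.26 and 0.44 of their unstimulated level, Klf10 rose 3.46-fold and Klf4 rose 1.74-fold. Klf13 was 1.81-fold higher in the means but did not pass the test. The test was edgeR's quasi-likelihood F test on counts summed per gene, with p-values adjusted over all 14417 genes by Benjamini-Hochberg and a threshold of 0.05. Thus 2 of 6 members rose and 3 fell, in a comparison where 39.0% of all genes were called, 19.5% higher and 19.4% lower. The split depended on scaling. With library totals in place of TMM factors, 1202 genes were higher and 6610 lower (2814 and 2803 with TMM). The rise of Klf10 was then 1.01 on the log2 scale in place of 1.79, and Klf4, at 0.04, no longer passed. The 5 called members moved the same way when stimulation was compared in Compound 10-treated cells, where 2 rose (Klf4, Klf10) and 3 fell (Klf2, Klf3, Klf6), while Klf13 had a log2 fold change of -0.43 and did not pass. There 26.5% of all genes were called, 12.8% higher and 13.7% lower (810 and 5219 genes with library totals, against 1844 and 1972). In stimulated cells, Compound 10 raised Klf6 2.96-fold and Klf4 2.20-fold and lowered Klf13 to 0.37 of its vehicle level, while Klf2, Klf3 and Klf10 did not pass, against 23.2% of all genes called, 10.4% higher and 12.8% lower. In unstimulated cells, Klf6 was 1.85-fold and Klf10 1.73-fold higher with Compound 10, and 0 members fell by edgeR, by DESeq2 or at an unadjusted p under 0.05, against 8.43% of all genes called, 4.65% higher and 3.78% lower. The comparisons share groups of libraries, so they are not independent of each other.

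**Figure D1:**
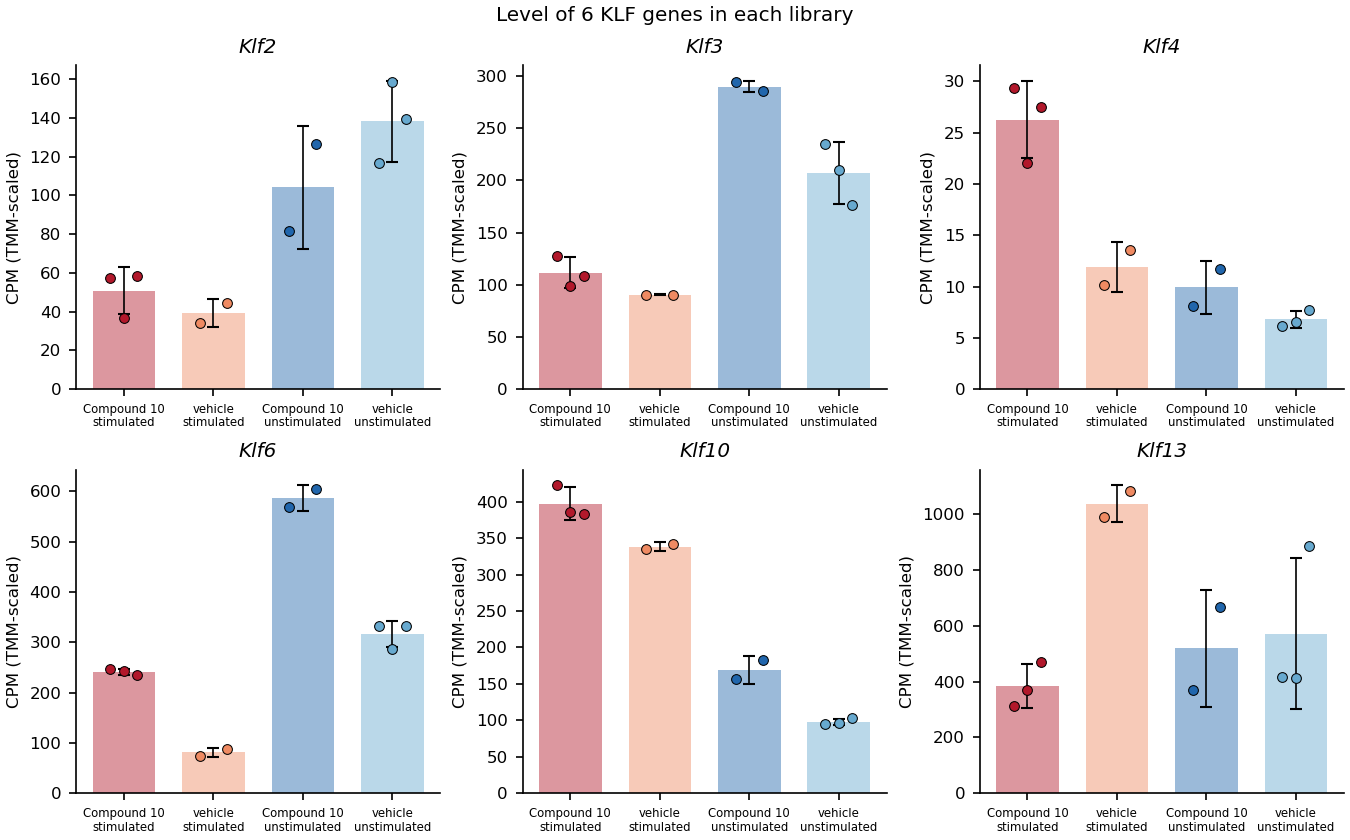
Level of each KLF gene in CPM with TMM factors (y axis, linear, from 0) in the 4 groups (x axis); bars are means, points are single libraries and whiskers are SD over 2 or 3 libraries. Klf6 is lowest and Klf13 highest in the 2 stimulated vehicle libraries, and Klf10 is high in all 5 stimulated libraries.

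Klf2, the quiescence factor, had 57.5, 36.8 and 58.4 CPM (scaled with TMM factors, as are all CPM of members) in stimulated Compound 10 cells, against 34.1 and 44.2 CPM in stimulated vehicle cells. It had 81.7 and 126.7 CPM in unstimulated Compound 10 cells, against 117, 158 and 139.6 CPM in unstimulated vehicle cells. Every stimulated library lay below every unstimulated one, while Compound 10 and vehicle libraries overlapped in both states. For stimulation, 62.5% of all genes had groups without overlap under vehicle and 50.4% with Compound 10. Stimulation lowered Klf2 by 1.82 on the log2 scale under vehicle (log2 fold change -1.82 ± 0.27 SE, adjusted p = 0.000288, edgeR) and by 1.04 with Compound 10 (-1.04 ± 0.25, adjusted p = 0.00951). The difference of Compound 10 from vehicle was 0.37 ± 0.26 in stimulated cells (95% interval -0.19 to 0.94, adjusted p = 0.337, edgeR). In unstimulated cells it was -0.41 ± 0.25 (interval -0.96 to 0.14, adjusted p = 0.366, edgeR). The fall with Compound 10 rested on unstimulated Compound 10 replicate 2, without which it was -0.71 (adjusted p = 0.107, edgeR).

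Klf3, the CtBP-recruiting repressor, had 128, 98.4 and 108 CPM in stimulated Compound 10 cells, against 90.5 and 89.9 CPM in stimulated vehicle cells. In unstimulated cells it had 294 and 286 CPM with Compound 10, against 235, 210 and 176 CPM with vehicle. Stimulated libraries were again all below unstimulated ones, and in both states each Compound 10 library was above each vehicle library. Klf3 fell with stimulation by 1.20 ± 0.17 under vehicle (adjusted p = 0.000222, edgeR) and by 1.38 ± 0.16 with Compound 10 (adjusted p = 0.000129, edgeR), both on the log2 scale. Compound 10 differed from vehicle by 0.30 ± 0.17 in stimulated cells (adjusted p = 0.218, edgeR) and by 0.49 ± 0.16 in unstimulated cells (adjusted p = 0.0904, edgeR), neither past the threshold. With runs of sample indices as a replicate block, the difference in unstimulated cells passed (0.57, adjusted p = 0.0124, edgeR). Groups without overlap were common in these comparisons, at 54.6% of all genes for Compound 10 in stimulated and 37.9% in unstimulated cells.

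Klf4, the antiproliferative factor, was the lowest of the 6 in every library. It had 29.3, 22.02 and 27.5 CPM in stimulated Compound 10 cells, against 10.2 and 13.6 CPM in stimulated vehicle cells. It had 8.11 and 11.7 CPM in unstimulated Compound 10 cells, against 6.13, 6.57 and 7.75 CPM in unstimulated vehicle cells. The 3 stimulated Compound 10 libraries stood above all 7 others. Groups without overlap were common, at 54.6% of all genes for Compound 10 in stimulated cells and 50.4% for stimulation with Compound 10. Klf4 rose with Compound 10 in stimulated cells by 1.14 ± 0.25 on the log2 scale (adjusted p = 0.00676, edgeR) and with stimulation in Compound 10-treated cells by 1.40 ± 0.25 (adjusted p = 0.00177, edgeR). Under vehicle the rise with stimulation was 0.80 ± 0.24 (adjusted p = 0.0207, edgeR), and in unstimulated cells Compound 10 differed from vehicle by 0.54 ± 0.24 (adjusted p = 0.189, edgeR). Between 79 and 466 estimated counts per library lay behind these values. With library totals in place of TMM factors the rise under vehicle was 0.04 and no longer passed. With no filter on low counts the rise under vehicle did not pass either. Mean TPM was 4.13 in stimulated and 4.04 in unstimulated vehicle cells. The rise under vehicle was lost without any 1 of 3 libraries, namely unstimulated vehicle replicate 1 (adjusted p = 0.055, edgeR), unstimulated vehicle replicate 2 (0.054) or stimulated vehicle replicate 2 (log2 0.56, 0.227), and the rise with Compound 10 was lost without stimulated vehicle replicate 1 (0.95, 0.0912). Klf4 is also a gene of monocytes, and the part of such cells in its change was not tested. The 8 myeloid markers summed to 1.94 to 4.41 CPM by library total in stimulated Compound 10 cells and 4.32 to 6.94 in stimulated vehicle cells. In unstimulated cells they summed to 10.2 to 11.6 CPM with Compound 10 and 17.6 to 32.0 CPM with vehicle. Cd68 made up most of the sum except in some stimulated Compound 10 libraries, and Lyz2 had 0 to 0.875 CPM. Of the 8 markers 3 had enough counts to be tested, and for Compound 10 in stimulated cells Cd68 fell by 1.60 ± 0.34 (adjusted p = 0.00615, edgeR), while Csf1r and Itgam did not pass. Itgam had 1.33, 1.03 and 0 CPM (TMM factors) in stimulated Compound 10 cells, against 0 and 0 CPM in stimulated vehicle cells.

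Klf6, the widely expressed factor, had the smallest p of the 6 for Compound 10 in both states. It had 246, 244 and 235 CPM in stimulated Compound 10 cells, against 75.2 and 87.7 CPM in stimulated vehicle cells. In unstimulated cells it had 569 and 605 CPM with Compound 10, against 332, 287 and 333 CPM with vehicle. The 4 groups did not overlap anywhere, and stimulated Compound 10 libraries lay between stimulated and unstimulated vehicle libraries. Of all genes, 62.5% had no overlap for stimulation under vehicle and 50.4% with Compound 10. For Compound 10 against vehicle these shares were 54.6% in stimulated and 37.9% in unstimulated cells. Compound 10 raised Klf6 by 1.57 ± 0.15 on the log2 scale in stimulated cells (adjusted p = 7.51e-05, edgeR) and by 0.89 ± 0.14 in unstimulated cells (adjusted p = 0.00442, edgeR). Of all genes tested, 8.93% had a larger difference in stimulated cells in either direction, and its p ranked 52 of 14417. Stimulation lowered Klf6 by 1.96 ± 0.15 under vehicle (adjusted p = 2.05e-06, edgeR) and by 1.28 ± 0.14 with Compound 10 (adjusted p = 6.33e-05, edgeR). No left-out library ended these calls, but the call in unstimulated cells was lost when only the groups compared were fitted (log2 0.90, adjusted p = 0.054, edgeR).

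Klf10, the TGF-beta early gene, had 423, 385 and 383 CPM in stimulated Compound 10 cells, against 334 and 342 CPM in stimulated vehicle cells. It had 156 and 183 CPM in unstimulated Compound 10 cells, against 94.7, 95.9 and 103 CPM in unstimulated vehicle cells. Every stimulated library was above every unstimulated one, and each Compound 10 library was above the vehicle libraries of its state. The shares of all genes without overlap given for Klf2 and Klf3 apply here too. Klf10 rose with stimulation by 1.79 ± 0.13 under vehicle (adjusted p = 1.86e-06, edgeR) and by 1.23 ± 0.14 with Compound 10 (adjusted p = 0.00011, edgeR), on the log2 scale. Compound 10 raised it by 0.79 ± 0.13 in unstimulated cells (adjusted p = 0.00671, edgeR). In stimulated cells the difference was 0.23 ± 0.14 (interval -0.07 to 0.53, adjusted p = 0.253, edgeR). The rise in unstimulated cells was lost without unstimulated Compound 10 replicate 2 (0.68, adjusted p = 0.0624, edgeR) and when only the groups compared were fitted (0.81, adjusted p = 0.0613, edgeR).

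Klf13, the factor linked to late Ccl5 expression, had 314, 370.1 and 469 CPM in stimulated Compound 10 cells, against 989 and 1083 CPM in stimulated vehicle cells. It had 369 and 667 CPM in unstimulated Compound 10 cells, against 417, 414 and 884 CPM in unstimulated vehicle cells. The high value of each unstimulated group came from the 2 deepest libraries. These and stimulated Compound 10 replicate 3, the highest of its group, share a run of sample indices that holds no stimulated vehicle library. Within the other runs, stimulated vehicle exceeded unstimulated vehicle by 1.24 and 1.39 on the log2 scale. The labels do not say what such a run is. Both stimulated vehicle libraries exceeded all others. Of all genes, 62.5% had no overlap for stimulation under vehicle and 54.6% for Compound 10 in stimulated cells. Klf13 fell with Compound 10 in stimulated cells by 1.43 ± 0.34 on the log2 scale (adjusted p = 0.00974, edgeR), and without stimulated vehicle replicate 2 the difference was -1.35 (adjusted p = 0.0682, edgeR). In unstimulated cells it differed by -0.14 ± 0.34 (interval -0.89 to 0.60, adjusted p = 0.849, edgeR). The difference of stimulated from unstimulated vehicle cells was 0.86 ± 0.34 (adjusted p = 0.0629, edgeR), which passed in 8 of 18 alternatives. It was 1.32 (adjusted p = 0.00145, edgeR) without unstimulated vehicle replicate 3, 0.87 (0.0255) with DESeq2, 0.93 (0.0482) with coding transcripts only, and 1.20 (0.00132) and 1.22 (6.69e-05) with a replicate block by label number and by index run. It also passed without either unstimulated Compound 10 library (0.0447 and 0.0435) and with no filter on low counts (0.000488), while with library totals it was 0.09 (0.825). With Compound 10 the difference of stimulated from unstimulated cells was -0.43 ± 0.34 (interval -1.17 to 0.31, adjusted p = 0.393, edgeR). It passed as a fall in 3 of 18 alternatives. These were library totals, no filter on low counts and a replicate block by label number.

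**Figure D2:**
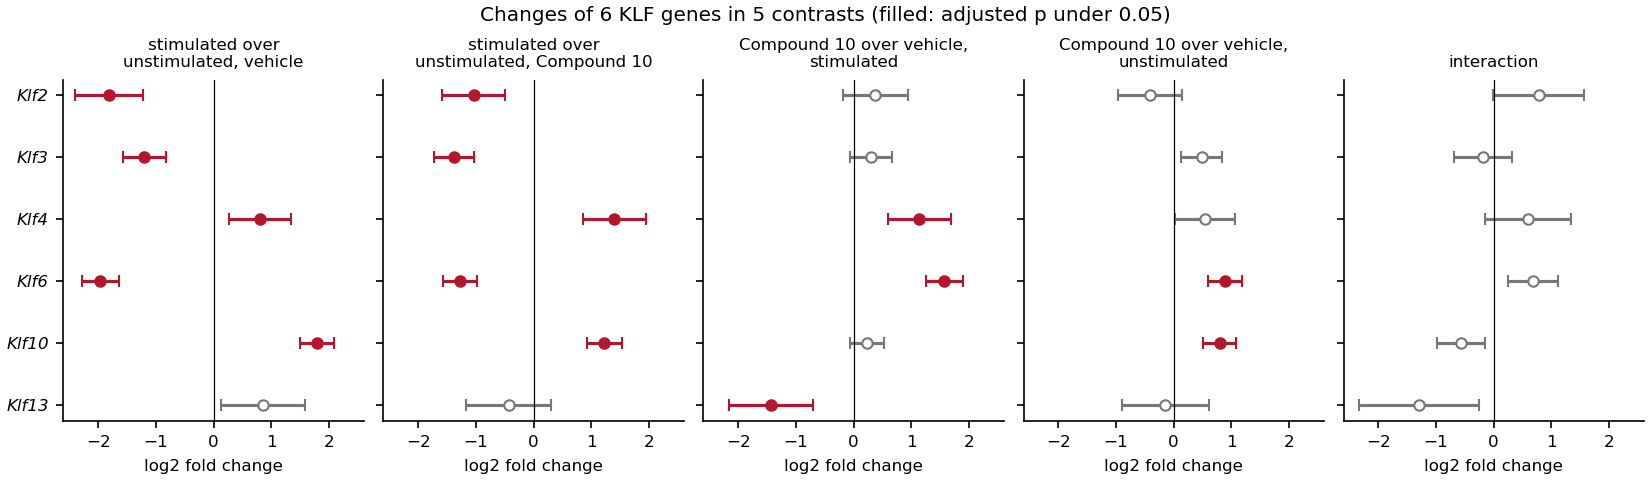
Log2 fold change (x axis) of each KLF gene (y axis) in 5 contrasts, from edgeR; whiskers are 95% intervals, filled points passed an adjusted p of 0.05. Klf6 lies at 1.57 for Compound 10 over vehicle in stimulated cells and Klf13 at -1.43, and no interaction passed.

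Whether the response to stimulation differed between Compound 10 and vehicle was tested by the interaction (stimulation effect with Compound 10 minus that with vehicle). By edgeR 0 of the 6 members passed, where 6.63% of all genes did, 2.55% higher and 4.08% lower. On simulated data with 200 changed genes this test recovered 2.06% of 2-fold and 50.5% of 4-fold changes. These rates need not hold in the real data, where more genes were called. A miss does not show that responses were alike. The estimates were 0.78 ± 0.36 for Klf2, 0.59 ± 0.34 for Klf4 and 0.68 ± 0.20 for Klf6, and -0.18 ± 0.23 for Klf3, -0.56 ± 0.19 for Klf10 and -1.29 ± 0.48 for Klf13, all on the log2 scale with SE. Klf6, Klf10 and Klf13 had unadjusted p of 0.00506, 0.0122 and 0.0197 and adjusted p of 0.0623, 0.101 and 0.132 by edgeR. DESeq2 called these 3 (adjusted p = 0.0137, 0.0281 and 0.0448). Klf13 passed with edgeR too when unstimulated vehicle replicate 3 was left out (-1.75, adjusted p = 0.0102).

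The make-up of the family was compared on TPM, a relative abundance that accounts for transcript length. Klf10 led in stimulated Compound 10 cells with 36.7% ± 2.0 (SD, n = 3) of the summed TPM of the 6 genes. Klf13 led in stimulated vehicle cells with 43.7% ± 0.64 (n = 2), and made up 17.9% ± 3.6 in stimulated Compound 10 cells. In unstimulated Compound 10 cells Klf3 (29.8% ± 5.7, n = 2) and Klf6 (28.8% ± 1.8) were level within their libraries. In unstimulated vehicle cells 4 members overlapped, from Klf3 at 27.3% ± 5.2 (n = 3) over Klf13 at 22.8% ± 8.1 and Klf2 at 21% ± 3.7 to Klf6 at 19.7% ± 1.8. Klf4 was last in every group, with 0.593% to 2.65% in any library. The 6 genes together summed to 387 to 398 TPM in stimulated Compound 10 cells, 364 to 410.3 TPM in stimulated vehicle cells, 770.0 to 792 TPM in unstimulated Compound 10 cells and 646 to 681 TPM in unstimulated vehicle cells. They held 81.3% to 89.9% of the TPM of all Klf genes. TPM is relative to all RNA of a library, which stimulation also changed, since TMM factors of stimulated libraries lay between 0.731 and 0.850 and those of unstimulated ones between 1.20 and 1.34.

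**Figure D3:**
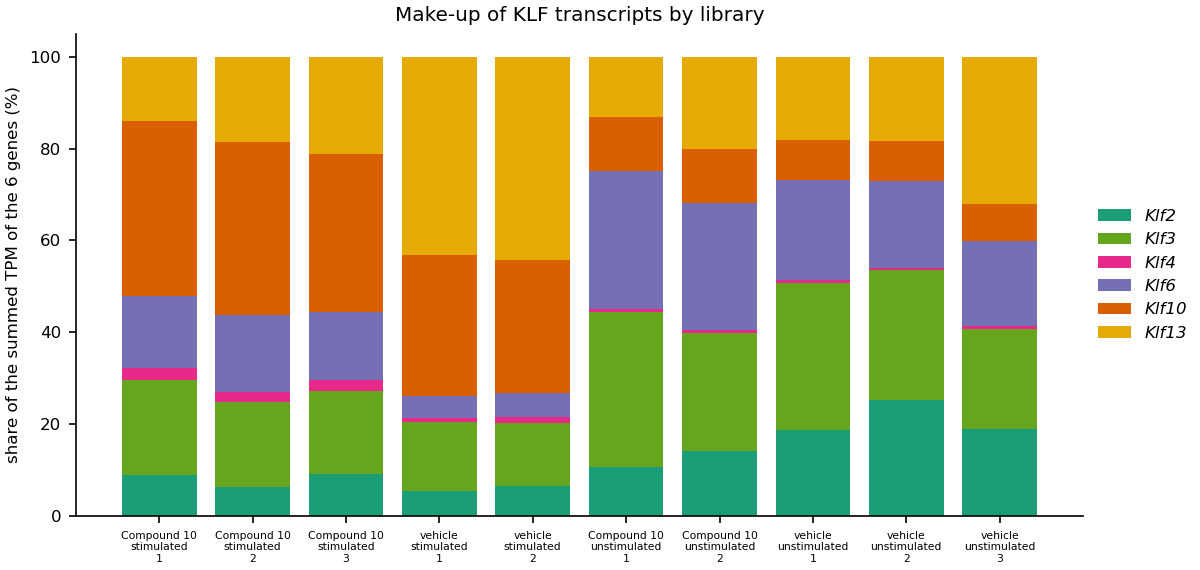
Share of the summed TPM of the 6 KLF genes held by each (y axis, percent) in the 10 libraries (x axis). Klf13 takes 43.3% and 44.2% in the stimulated vehicle libraries and 14.1% to 21.1% in the stimulated Compound 10 libraries.

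The order of TPM levels showed which neighbours were apart. In stimulated Compound 10 cells Klf10 (144 ± 9.5 TPM) stood above Klf3 (75.1 ± 5.8), Klf13 (70.4 ± 13.5) and Klf6 (62.1 ± 4.7), and the libraries of these 3 overlapped in that order. Klf2 (31.6 ± 6.0) and Klf4 (9.54 ± 0.91) followed, each apart from its neighbours. In stimulated vehicle cells Klf13 (169 ± 16.7 TPM), Klf10 (115 ± 5.6) and Klf3 (55.7 ± 1.5) were each apart, Klf2 (23.1 ± 4.9) and Klf6 (19.7 ± 2.8) overlapped, and Klf4 had 4.13 ± 1.02. In unstimulated Compound 10 cells Klf3 (232 ± 39.8 TPM) overlapped with Klf6 (225 ± 9.9), and Klf13 (130.4 ± 40.9), Klf2 (96.5 ± 21.3) and Klf10 (91.7 ± 2.4) overlapped as neighbours. In unstimulated vehicle cells Klf3 (182 ± 31.2 TPM), Klf13 (152 ± 55.4), Klf2 (140.3 ± 27.9) and Klf6 (131 ± 8.6) overlapped as neighbours, and Klf10 (57.2 ± 3.0) was apart below them.

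Ratios between 2 members within a library do not depend on how libraries are scaled. For the 15 pairs, log2 TPM ratios were compared with stimulation and with Compound 10 by a two-sided exact permutation test within strata, with 30 tests adjusted together. The strata were vehicle and Compound 10 for stimulation, and unstimulated and stimulated cells for the compound. Each change given is the mean of the changes in the 2 strata, which can differ. The smallest p that the 100 relabellings allow is 0.01. With stimulation 11 of 15 pairs changed, and with Compound 10 8 of 15 did. The 15 pairs are built from 6 genes, so a change of 1 gene enters several pairs and the pairs are not independent. Klf6 relative to Klf13 moved most with the compound, by 1.97 on the log2 scale (p = 0.01, adjusted 0.02, exact permutation test). The Klf6 to Klf13 ratio was 1.11, 0.907 and 0.705 in stimulated Compound 10 cells, against 0.112 and 0.119 in stimulated vehicle cells. It was 2.29 and 1.37 in unstimulated Compound 10 cells, against 1.21, 1.03 and 0.575 in unstimulated vehicle cells, so the groups stood apart in both states.

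Klf2 and Klf6 fell together with stimulation, yet separated with the compound. Their log2 ratio changed by 0.20 with stimulation (p = 0.34, adjusted 0.352, exact permutation test) and by -1.27 with Compound 10 (p = 0.01, adjusted 0.02). The Klf2 to Klf6 ratio was 0.570, 0.368 and 0.608 in stimulated Compound 10 cells, against 1.11 and 1.23 in stimulated vehicle cells. It was 0.351 and 0.511 in unstimulated Compound 10 cells, against 0.860, 1.35 and 1.02 in unstimulated vehicle cells. Klf2 relative to Klf10 changed by -2.94 with stimulation (p = 0.01, adjusted 0.02, exact permutation test) and by -0.55 with Compound 10 (p = 0.13, adjusted 0.177). That -0.55 is the mean of -1.22 in unstimulated and 0.13 in stimulated cells. In unstimulated cells the Klf2 to Klf10 ratio was 0.905 and 1.195 with Compound 10, against 2.13, 2.86 and 2.35 with vehicle. Klf4 relative to Klf6 changed by 2.73 with stimulation (p = 0.01, adjusted 0.02, exact permutation test) and by -0.41 with Compound 10 (p = 0.02, adjusted 0.0333). Leaving out any 1 stimulated Compound 10 library left 3 pairs for Compound 10, where the smallest p allowed by the relabellings was 0.0167. Without either stimulated vehicle library that smallest p was 0.025 and 1 library remained in the group. The number of pairs past the threshold therefore cannot be judged there. The signs of all 15 pairs held in each of these. Other pairs of genes were not tested, and of single genes 39.0% were called for stimulation under vehicle and 23.2% for Compound 10 in stimulated cells.

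**Figure D4:**
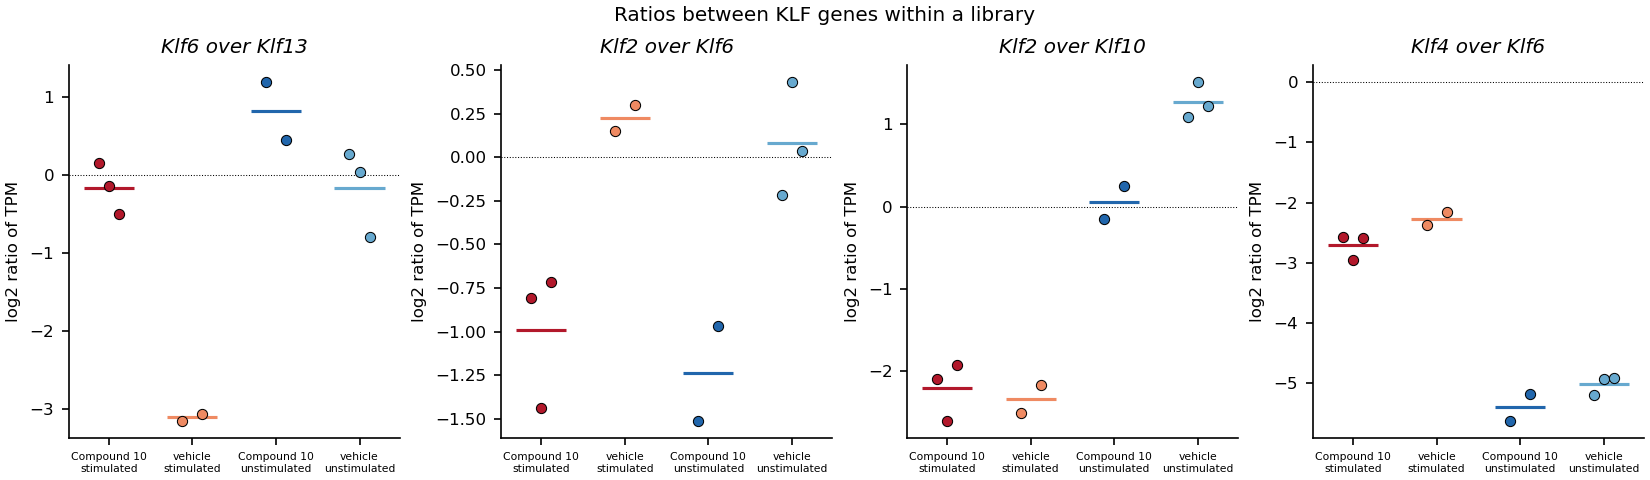
Log2 ratio of TPM between 2 KLF genes within a library (y axis) for 4 pairs in the 4 groups (x axis); points are libraries and lines are group means. Klf6 over Klf13 averages -3.11 in stimulated vehicle cells and -0.16 in stimulated Compound 10 cells.

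The deposited values are per transcript, and Klf2, Klf6 and Klf10 had 1 transcript each in the files. Klf4 was carried by Klf4-201, with at least 95.6% of its TPM. Klf13 was carried by the coding transcript Klf13-201, at 89.7% ± 1.5 (n = 3) of its TPM in stimulated Compound 10 cells and 95.1% ± 0.26 (n = 2) in stimulated vehicle cells. The transcript Klf13-203, annotated as a retained intron, made up 7.41%, 10.5% and 8.33% in stimulated Compound 10 cells, against 3.58% and 4.47% in stimulated vehicle cells. Its estimated counts were 27, 60 and 57 in stimulated Compound 10 cells, against 33.8 and 69 in stimulated vehicle cells, so the groups overlapped. Klf13-201 had 2810, 4255 and 5241 counts in stimulated Compound 10 cells, against 7638 and 12440 counts in stimulated vehicle cells, with no overlap. Klf3 was spread over 9 transcripts, of which 4 code for protein. Klf3-208, a retained intron, held 27.3% to 29.9% of its TPM in stimulated Compound 10 cells, 28.8% to 44.3% in stimulated vehicle cells, 26.01% to 29.9% in unstimulated Compound 10 cells and 22.7% to 32.6% in unstimulated vehicle cells. The longest coding transcript, Klf3-201, held 10.9% to 12.9% and 9.47% to 10.5% in the stimulated Compound 10 and vehicle libraries, and 15.3% to 17.01% and 14.2% to 18.0% in the unstimulated Compound 10 and vehicle libraries. Protein-coding transcripts of Klf3 summed to 44.6 ± 4.6 TPM in stimulated Compound 10 cells, 28.4 ± 5.6 in stimulated vehicle cells, 127 ± 30.03 in unstimulated Compound 10 cells and 106 ± 27.6 in unstimulated vehicle cells. kallisto divides reads among overlapping transcripts, and the kit does not record the strand, so these shares are estimates.

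**Figure D5:**
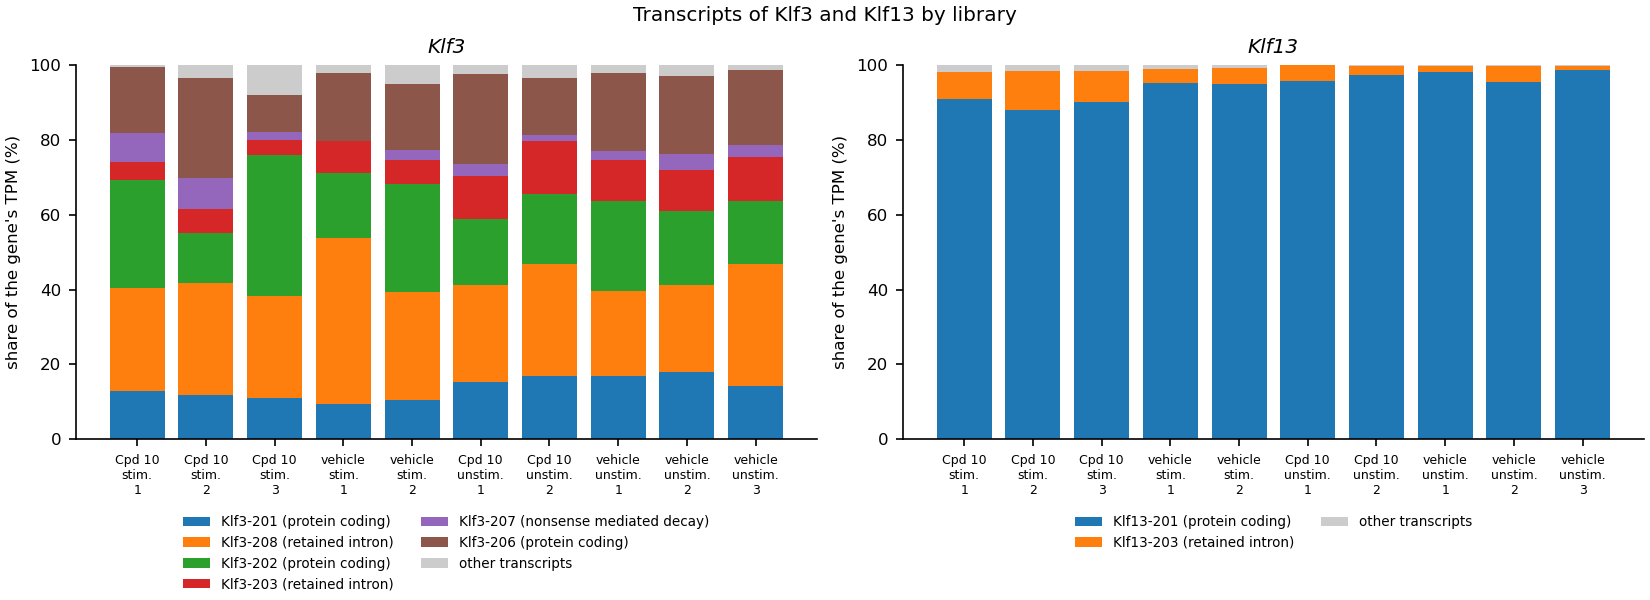
Share of the TPM of Klf3 (left) and Klf13 (right) in each transcript (y axis, percent) by library (x axis, Cpd 10 for Compound 10). Klf13-203 takes 7.41% to 10.5% in stimulated Compound 10 libraries and 3.58% to 4.47% in stimulated vehicle libraries.

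The genes with the most similar profiles were taken as the 3 with the highest Pearson r of log2 CPM over the 10 libraries, among 7440 genes whose mean log2 CPM was 3 or more. For Klf10 these were the cell cycle inhibitor gene Cdkn1a (r = 0.993), Zfand5 (0.992) and the chaperone gene Dnajb9 (0.989). For Klf6 they were Jmy (0.986), the lysosomal lipase gene Lipa (0.985) and Smc6 (0.982). For Klf4 they were Nsa2 (0.990), the heat shock gene Dnajb1 (0.988) and the mediator subunit gene Med7 (0.984). Klf3 was nearest to Ehbp1l1 (0.985), Camkk1 (0.973) and Naa80 (0.972). Klf2 was nearest to Ptov1 (0.976), Nudcd2 (0.976) and Gemin2 (0.974), and Klf13 to Kdelr2 (0.984), Sf3b4 (0.970) and the proteasome gene Psmc6 (0.967). These 10 points share their 4 groups and libraries, and no test was made on them.

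Of the 11 other Klf genes, 6 had enough counts, and 4 of those changed in some comparison. Klf9, a small KLF related to Klf13, ran opposite to Klf6 with the compound in stimulated cells. It had 17.1, 18.8 and 23.5 CPM in stimulated Compound 10 cells, against 31.7 and 38.9 CPM in stimulated vehicle cells, and 12.4 and 11.98 CPM in unstimulated Compound 10 cells, against 6.41, 5.13 and 8.06 CPM in unstimulated vehicle cells. It rose with stimulation by 2.43 ± 0.23 under vehicle (adjusted p = 1.12e-05, edgeR) and by 0.70 ± 0.23 with Compound 10 (adjusted p = 0.0451, edgeR), fell with Compound 10 in stimulated cells by 0.83 ± 0.23 (adjusted p = 0.0203, edgeR) and rose with it in unstimulated cells by 0.89 ± 0.23 (adjusted p = 0.0359, edgeR). Klf7 had 48.2, 40.4 and 45.1 CPM in stimulated Compound 10 cells, against 13.1 and 18.96 CPM in stimulated vehicle cells, and rose with Compound 10 by 1.47 ± 0.22 (adjusted p = 0.000893, edgeR). It fell with stimulation under vehicle by 1.16 ± 0.22 (adjusted p = 0.00155, edgeR). Klf5, a low gene, rose with Compound 10 by 1.22 in stimulated and 1.66 in unstimulated cells and with stimulation under vehicle by 1.36, and Klf11 rose with Compound 10 in stimulated cells by 0.82 (adjusted p = 0.0307, 0.0156, 0.0108 and 0.0142, edgeR). In stimulated cells 3 of the 6 were thus higher and 1 lower with Compound 10, against 10.4% and 12.8% of all genes. Their median log2 fold change was 0.57, against 0.04 over all genes. Without either stimulated vehicle library or stimulated Compound 10 replicate 1, Klf5, Klf9 and Klf11 no longer passed for Compound 10 in stimulated cells (adjusted p = 0.0512 to 0.189, edgeR), nor did Klf5 without stimulated Compound 10 replicate 3 and Klf9 without replicate 2. Klf7 kept its call without any 1 library. The rise of Klf9 with stimulation in Compound 10-treated cells was lost without any 1 of 8 libraries. Klf12, Klf14, Klf15, Klf17 and the erythroid factor gene Klf1 did not have enough counts.

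Among 7 trafficking genes linked to KLF2, stimulation under vehicle lowered S1pr1, the receptor gene for lymphoid egress and a KLF2 target, by 1.97 ± 0.21, S1pr4 by 2.98 ± 0.20 and the interleukin-7 receptor gene Il7r by 0.79 ± 0.17, and raised 1, Cd69 (adjusted p at most 0.00337 for each of the 4, edgeR). With Compound 10 the same 3 fell and Cd69 rose, S1pr1 by 0.89 ± 0.19 (adjusted p = 0.00557, edgeR). The fall of Il7r with stimulation there was lost without any 1 of 7 libraries. S1pr1 had 82.9, 81.3 and 100.7 CPM in stimulated Compound 10 cells, against 33.0 and 51.7 CPM in stimulated vehicle cells, and differed by 1.06 ± 0.20 (adjusted p = 0.00333, edgeR). Klf2 itself did not pass in that comparison. Without stimulated vehicle replicate 1 the S1pr1 difference was 0.77 (adjusted p = 0.0547, edgeR). Il7r rose with Compound 10 by 2.36 ± 0.18 in stimulated and by 2.08 ± 0.16 in unstimulated cells (adjusted p = 4.17e-05 and 6.18e-05, edgeR). The homing genes Ccr7 and Itgb7 did not pass in the 5 comparisons by edgeR. With Compound 10, 3 genes of this list rose in stimulated cells, Cd69 among them by 0.59 ± 0.13 (adjusted p = 0.00734, edgeR), and 1 in unstimulated cells.

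Of 8 genes upstream of Klf2, 7 were tested. Compound 10 in stimulated cells lowered 3, namely Mapk7, which encodes ERK5 (-1.21 ± 0.30), Foxo1, a factor that drives Klf2 in T cells (-0.79 ± 0.22), and Mef2a (-0.60 ± 0.15), and raised Mef2d (0.66 ± 0.15), with adjusted p of 0.0135, 0.0239, 0.0151 and 0.00808 by edgeR. Mapk7, Foxo1 and Mef2d each missed the threshold without either stimulated vehicle library (adjusted p = 0.072 to 0.129, edgeR). Stimulation under vehicle raised Foxo1 (0.84), Mef2a (0.72) and Foxo4 (0.65) and lowered Map2k5 (-0.83), the kinase gene above ERK5. Foxo4 was lost without any 1 of 8 libraries (adjusted p up to 0.23, edgeR), and Foxo1 (0.0705 and 0.0588) and Map2k5 (0.0516 and 0.107) without either stimulated vehicle library. With Compound 10, Mapk7 fell with stimulation by 0.89 (adjusted p = 0.0494, edgeR), and Foxo4 rose in unstimulated cells by 0.94 (adjusted p = 0.0305, edgeR). Each of these calls was lost without any 1 of 7 libraries. Mef2c did not have enough counts.

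Corepressor genes moved in both directions. Of 7, stimulation under vehicle raised Sin3b (1.15 ± 0.15), Hdac1 (0.98 ± 0.16) and Hdac2 (0.60 ± 0.14) and lowered Hdac3 (-0.90 ± 0.16). With Compound 10 it raised Sin3b and lowered Hdac3 and Ctbp2. In stimulated cells Compound 10 lowered Sin3b by 0.75 ± 0.15 (adjusted p = 0.00413, edgeR) and Ctbp2, a low gene, by 2.16 ± 0.59 (adjusted p = 0.0219, edgeR), and in unstimulated cells it lowered Hdac3 by 0.69 ± 0.15 (adjusted p = 0.0209, edgeR). Sin3a and Ctbp1 passed in none.

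Of 11 TGF-beta pathway genes around Klf10, 5 rose with stimulation under vehicle, led by the ligand gene Tgfb1 (2.32 ± 0.24), the corepressor genes Tgif1 (1.69 ± 0.13) and Skil (1.44 ± 0.26) and the signal transducer gene Smad3 (0.92 ± 0.26). Smad3 was lost without either stimulated vehicle library (adjusted p = 0.0974 and 0.0618, edgeR) and was 0.14 with library totals. The median log2 fold change of the 11 was 0.73, against -0.06 over all genes. With Compound 10 these 4 rose as well, and Tgfbr3, a coreceptor gene, was the 1 gene to pass for Compound 10, in stimulated (1.28 ± 0.31, adjusted p = 0.0123, edgeR) and unstimulated cells (1.14 ± 0.29, adjusted p = 0.0353, edgeR). The Tgfbr3 call in stimulated cells was lost without either stimulated vehicle library (adjusted p = 0.126 and 0.0573, edgeR). Of 9 SP genes, the nearest relatives of the KLFs, 6 were tested. Stimulation under vehicle raised 4, with Sp6 at 1.93 ± 0.41 and Sp4 at 0.93 ± 0.21, and lowered Sp3 by 0.47 ± 0.17, and with Compound 10 it raised 3. Sp3 was lost without any 1 of 6 libraries (adjusted p = 0.0506 to 0.205, edgeR). For Compound 10 in stimulated cells 0 SP genes passed by edgeR, 3 had an unadjusted p under 0.05 (Sp1 lower, Sp6 and Sp9 higher) and DESeq2 called these 3.

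Wwp1, a ubiquitin ligase gene whose product targets KLF2, had 18.8, 14.2 and 17.5 CPM in stimulated Compound 10 cells, against 5.79 and 4.93 CPM in stimulated vehicle cells, and rose by 1.65 ± 0.22 (adjusted p = 0.000405, edgeR). It was the 1 of 3 such ligase genes to pass for the compound, and under vehicle it fell with stimulation by 1.38 ± 0.22 (adjusted p = 0.00048, edgeR), as did Smurf1 by 0.92. With coding transcripts only Smurf1 differed by -0.11 (adjusted p = 0.811, edgeR), and without stimulated vehicle replicate 1 by -0.73 (adjusted p = 0.103, edgeR). Among 7 cell cycle genes linked to KLF2 and KLF4, stimulation under vehicle raised Myc (6.32 ± 0.18), Cdkn1a (4.81 ± 0.24) and the cyclin gene Ccnd2 (3.33 ± 0.19) and lowered Cdkn1b (-2.50 ± 0.56). Compound 10 raised Cdkn1a by 1.01 ± 0.23 in stimulated and by 1.86 ± 0.22 in unstimulated cells (adjusted p = 0.00768 and 0.00104, edgeR). In stimulated cells it also raised Ccnd3 (0.95 ± 0.16) and lowered Ccnd2 (-1.55 ± 0.18) and Cdkn2c (-1.10 ± 0.33).

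Of 54 listed genes tested, 57.4% were called for stimulation under vehicle and 38.9% with Compound 10, against 39.0% and 26.5% of all genes. For Compound 10 it was 35.2% in stimulated and 13% in unstimulated cells, against 23.2% and 8.43%. The lists were chosen with earlier results known, so these shares are not a test of them. How far the calls of the listed genes rested on single libraries differed between comparisons. Of 31 listed genes called for stimulation under vehicle, 21 kept their call with each library left out in turn, and Klf5, Sp1, Sp3, Sp9, Foxo1, Foxo4, Map2k5, Tgfbr1, Smad3 and Smurf1 did not. With Compound 10, 11 of 21 genes called for stimulation did, among them S1pr1, S1pr4, Sp6, Tgfb1, Tgif1, Myc and Cdkn1a. Klf9, Sp4, Sp9, Il7r, Mapk7, Hdac3, Sin3b, Skil, Smad3 and Smurf1 did not. For Compound 10 in stimulated cells 5 of 19 did, namely Klf7, Il7r, Wwp1, Ccnd2 and Ccnd3. In unstimulated cells 2 of 7 did, namely Il7r and Cdkn1a, while Klf5, Klf9, Foxo4, Hdac3 and Tgfbr3 were each lost without at least 1 library.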

How the data were processed

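The 10 libraries of 4 groups were built from total RNA by Clontech SMART-seq, per the labels' protocols, so strand is unknown. Per the submitters' processing notes, cutadapt, kallisto and mm10 were used; versions: not given in the sources used here. Per transcript, the authors deposited estimated counts and TPM values, per the file headers. Transcripts were matched to GENCODE M21 by Ensembl identifier (108214 of 109617 matched; the 1403 others held 0.507% to 0.671% of a library's counts), and their estimated counts were added up by gene, then rounded. edgeR 4.0.16 (R 4.3.3) was fitted to all libraries with 1 coefficient per group, TMM factors and filterByExpr, leaving 14417 genes, and tested by its quasi-likelihood F test with Benjamini-Hochberg adjustment. Each SE is the estimate divided by the root of its F. Alternatives were DESeq2 1.42.0, other scalings, no filter, fits of the groups compared, coding transcripts only, each library left out, and replicate blocks. The fit was tested on simulated data in which 200 genes were changed. Of 2-fold changes it recovered 20.8% to 26.8% in the comparisons of groups and 2.06% for the interaction. Of 4-fold changes it recovered 56.2% to 72.4% and 50.5%, with false calls at 2.44% to 11%. More genes were called in the real data, which makes the adjustment of p-values less strict there. These rates therefore need not hold for the real data. Genes that did not pass may still differ. Named genes were the 6 members in every comparison and, from 8 lists, up to 4 genes per comparison with the smallest adjusted p under 0.05; others named from a list (Ccr7, Itgb7, Cdkn2c, Smurf1, Sin3a, Ctbp1 and those with too few counts) complete its counts; 1 listed gene is not reported here by name. The members and lists were chosen with earlier results of these data known.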

Additional observations from a re-analysis of the deposited data

Results flagged for a closer look

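The interaction test, which compares the response to stimulation with Compound 10 and with vehicle, passed for 4 of 54 genes tested in the lists around the KLF members (7.41%), near the 6.63% of all genes called, and for 0 of the 6 members by edgeR. Ccnd2, a cyclin gene, had -1.88 ± 0.26 (SE, adjusted p = 0.0027, edgeR), with 1128, 1231 and 1492 CPM in stimulated Compound 10 cells against 3704 and 3788 CPM in stimulated vehicle cells, and 402 and 533 CPM in unstimulated Compound 10 cells against 329, 344 and 442 CPM in unstimulated vehicle cells. Klf9 had -1.73 ± 0.32 (adjusted p = 0.0112, edgeR), lost without stimulated vehicle replicate 2 (-1.56, adjusted p = 0.0743). Wwp1 had 1.55 ± 0.30 (adjusted p = 0.0122, edgeR), lost without either stimulated vehicle library (adjusted p = 0.0575 and 0.0764). S1pr1 had 1.08 ± 0.28 (adjusted p = 0.0431, edgeR) and was lost without any 1 of 8 libraries (adjusted p = 0.0644 to 0.19).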

How the results depend on the processing

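No call of a KLF member reversed its sign under any alternative. Scaling by library totals alone put the median log2 fold change at -0.83, not -0.06 (stimulation under vehicle), and at -0.60, not -0.01 (with Compound 10). It left 1 member called higher under vehicle (Klf10 at 1.01; Klf4 at 0.04 was lost) and called 6029 genes with Compound 10. Under it 5 list genes changed sign for stimulation under vehicle, namely Sp1 (-0.039), Mef2a (-0.056), Foxo4 (-0.13), Hdac2 (-0.18) and Tgfbr1 (-0.0037). Upper-quartile factors turned the split for Compound 10 in stimulated cells to 2090 higher and 1528 lower genes, against 1502 and 1848 with TMM. For Compound 10 in unstimulated cells, DESeq2 called 1888 genes, and fitting only the groups compared called 122, with 0 members higher. For the interaction, 1 member was called higher (Klf6) with upper-quartile factors, with library totals and with DESeq2; DESeq2 called 2 lower and 1671 genes in all, and no filter called 1 lower (Klf13) and 1448 genes. The cause was not tested.

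Leaving out 1 library gave 3568 to 5769 genes for stimulation under vehicle (members 1 to 3 higher, 3 lower), 2347 to 4370 with Compound 10 (2 higher, 2 to 3 lower), 1589 to 3919 for Compound 10 in stimulated cells (1 to 2 higher, 0 to 1 lower), 325 to 1335 in unstimulated cells (1 to 2 higher, 0 lower) and 191 to 1332 for the interaction (0 higher, 0 to 1 lower). The ratio tests then gave at most 10 pairs with stimulation and at most 8 with Compound 10. Their smallest possible p rose from 0.01 to 0.0167 or 0.025, which by itself lowers such counts.

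Deviations of same-numbered libraries from their group means had 2 of 13 correlations over 0.1 (-0.279 to 0.331). In groups of 2 the libraries mirror each other, so these values cannot tell whether the labels' numbers mark pairs. With a replicate block by label number the interaction called 1504 genes and 1 member lower (Klf13). For libraries of the same run of sample indices, 3 of 12 correlations were over 0.1 (-0.0516 to 0.464), with the same limit. A replicate block by these runs called 2403 genes for Compound 10 in unstimulated cells, Klf3 among them. For the interaction it called 2167 genes, 1 member higher and 2 lower. Klf4, at 79 to 466 counts per library, has the least depth among the members.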
